A study of Homo sapiens with 4 samples.

Results

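The genes described are 40 cell cycle and DNA replication genes, from cyclins, kinases and transcription factors to the enzymes that copy DNA and the proteins that part the chromosomes. They were chosen by name, and each was read through 1 probe set, the one whose mean across the 4 arrays was highest. All 40 were among the 19775 genes measured and among the 13651 genes kept after low values were left out. Their lowest reading on any array was 6.60, for PLK1, above the filter value of 5.73 on the log2 scale.

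The arrays measured RNA from HT29 and Colo205, which are established colon cancer cell lines, and from derivatives named HT29RC and Colo205RC that had become resistant under rising amounts of PLX4720, an inhibitor of the kinase BRAF to which the parents were only partly sensitive. Both lines are known to carry an activating BRAF mutation, and this is background shared by all 4 groups. There was 1 array for each line and state. All cells grew in medium with 10% serum, and the derivatives spent the last 24 h before harvest without the drug, so that no RNA was taken from cells in the inhibitor. The series text speaks of resistant clones, and the labels do not say how many clones a derivative holds.

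Cells duplicate their DNA in S phase and divide it in mitosis, and the genes for the 2 phases are made in waves. Factors of the E2F family switch on genes for origin licensing, the replicative helicase and nucleotide supply from late G1. Genes for mitotic cyclins, kinases and the spindle follow in G2, under complexes that hold MYBL2 and FOXM1 and act through promoter elements called CHR and CCAAT boxes. ERK signalling below BRAF drives entry into this cycle through cyclin D, and colon cancer cells with mutant BRAF rely on it to proliferate. The members were therefore divided into 20 replication genes and 18 mitotic genes, with CCNA2 and MYBL2, which work in both phases, in neither.

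The classes, set by function, also differ in the letters of their promoters. RefSeq promoter windows of assembly GRCh38.p14, from 250 bases before to 50 after the start of transcription, were found for 32 of the 40 members, 16 of them replication and 14 mitotic genes. The 6 stretches below are the 200 bases before the start, read on the strand of the gene, of 3 genes of the replicative helicase, the member group described first below, and of 3 mitotic genes, shown to set the letters of the classes side by side. Capitals mark the letters of an E2F word (TTTCCCGC, TTTCGCGC, TTTGCCGC or TTTGGCGC), of a CHR word (TTTGAA or TTCGAA) or of a CCAAT box (CCAAT), each sought on both strands.
MCM3, chr6:52284743-52284942, minus strand: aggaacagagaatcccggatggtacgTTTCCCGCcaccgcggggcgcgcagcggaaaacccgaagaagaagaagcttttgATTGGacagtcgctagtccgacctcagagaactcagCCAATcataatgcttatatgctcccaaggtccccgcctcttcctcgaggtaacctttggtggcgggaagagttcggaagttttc
MCM6, chr2:135876444-135876643, minus strand: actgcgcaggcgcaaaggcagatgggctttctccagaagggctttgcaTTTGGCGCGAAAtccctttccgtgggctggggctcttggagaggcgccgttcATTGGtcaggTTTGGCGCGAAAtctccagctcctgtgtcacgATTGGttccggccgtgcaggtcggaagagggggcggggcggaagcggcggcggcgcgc
MCM7, chr7:100101398-100101597, minus strand: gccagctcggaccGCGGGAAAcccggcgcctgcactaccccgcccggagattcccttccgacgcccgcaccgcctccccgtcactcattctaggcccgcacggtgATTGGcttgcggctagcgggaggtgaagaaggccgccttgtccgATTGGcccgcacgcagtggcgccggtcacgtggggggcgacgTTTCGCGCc
CCNB2, chr15:59104946-59105145, plus strand: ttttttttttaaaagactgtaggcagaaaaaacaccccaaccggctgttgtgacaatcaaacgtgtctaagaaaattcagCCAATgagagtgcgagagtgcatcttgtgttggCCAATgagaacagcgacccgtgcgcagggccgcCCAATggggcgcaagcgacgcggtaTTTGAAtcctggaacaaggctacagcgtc
PLK1, chr16:23678689-23678888, plus strand: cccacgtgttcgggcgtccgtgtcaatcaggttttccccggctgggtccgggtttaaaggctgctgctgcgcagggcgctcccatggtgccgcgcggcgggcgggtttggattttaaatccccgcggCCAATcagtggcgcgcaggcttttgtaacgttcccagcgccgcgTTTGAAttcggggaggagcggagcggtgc
TOP2A, chr17:40417897-40418096, minus strand: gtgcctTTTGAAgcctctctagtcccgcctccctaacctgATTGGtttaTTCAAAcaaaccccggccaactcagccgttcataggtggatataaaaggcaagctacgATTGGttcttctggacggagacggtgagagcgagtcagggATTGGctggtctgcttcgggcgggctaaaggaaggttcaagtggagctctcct

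In these stretches MCM6 holds 4 E2F words that overlap in 2 runs, MCM7 holds 2 and MCM3 holds 1, and none of the 3 has a CHR word. In the parts of the windows not shown in full, MCM6 has a CHR word 246 bases before the start. MCM3 has a second E2F word that begins 4 bases before the start. CCNB2 and PLK1 each hold 1 CHR word and TOP2A holds 2, with no E2F word. Over the whole windows, E2F words were present in 12 of 16 replication promoters and in 2 of 14 mitotic ones (14.3%), against 3.33% of all 27305 promoters of this length. CHR words were present in 11 of 14 mitotic promoters (78.6%) and 2 of 16 replication ones (12.5%), against 16.6% of all promoters. CCAAT boxes were common to both, in 13 of 14 mitotic and 11 of 16 replication promoters, against 35.7% of all. A match is a run of letters and not a bound site.

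Between a derivative and its parent the members differed little, and in HT29 the replication genes stood on the lower side while the mitotic genes did not. Of the 20 replication genes 13 read lower in resistant than in parental HT29, with a median difference of -0.27 on the log2 scale. Without the helicase genes MCM2 to MCM7, a choice made after seeing the data, 7 of the remaining 14 did, with a median of -0.0005. Of the 18 mitotic genes 6 read lower, with a median of 0.09. In Colo205 the medians were 0.05 and 0.09, with 8 of 20 and 7 of 18 lower. Over all kept genes the medians were -0.01 in HT29 and -0.02 in Colo205, 51.4% and 52.4% of them read lower and 48.5% and 47.5% higher in the derivative.

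With 1 array on each side these differences have no test and no replicate check. The only measure of technical scatter is how far differences of several probe sets for 1 gene lie apart, whose pooled SD over 6615 genes with several probe sets was 0.30 in each line. In HT29, 10 of the 20 replication genes read lower by at least that much, against 19.8% of all kept genes, and 2 of 18 mitotic genes did. In Colo205, 3 of 20 and 2 of 18 did, against 20.2% of all kept genes. Signs also depend on the probe set. Of 26 members with several probe sets past the filter, 18 had the same sign in all of them in HT29 and 18 in Colo205. Among mitotic members these were 6 of 10 in each line. RNA came from whole cultures, so that fewer cells in S phase and less of each RNA per cell cannot be told apart.

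**Figure D1:**
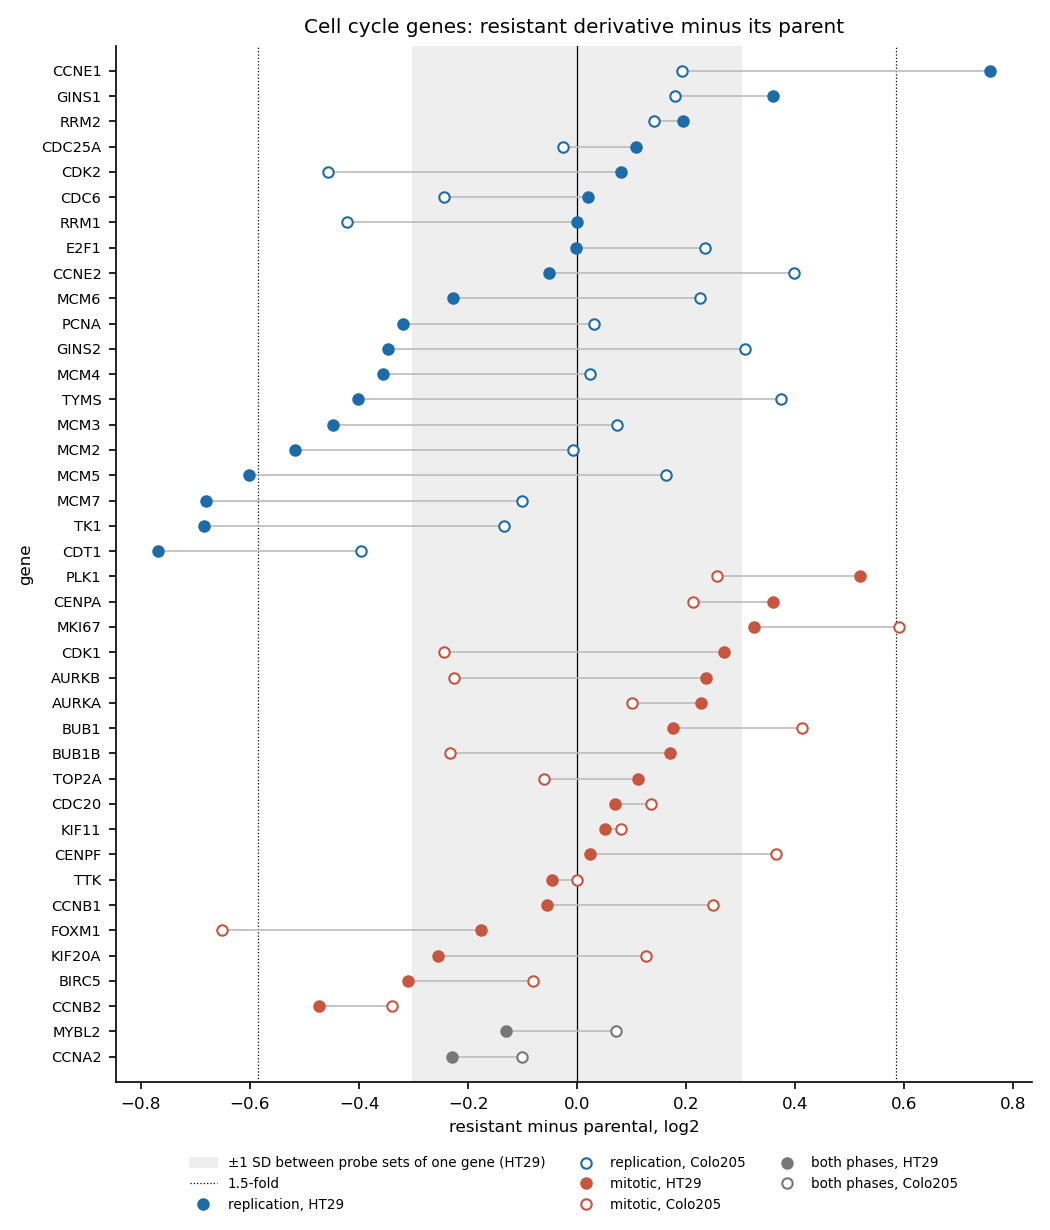
Resistant minus parental log2 difference of each of the 40 members, with HT29 as filled and Colo205 as open circles, 1 gene per row, coloured by class; the grey band is ±1 SD (0.30) between probe sets of the same gene and dotted lines mark 1.5-fold. In HT29 13 of 20 replication genes lie left of 0 and 12 of 18 mitotic genes right of it.

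The clearest member group was the replicative helicase. MCM2, MCM3, MCM4, MCM5, MCM6 and MCM7 form the ring that unwinds DNA at each fork, and all 6 genes read lower in resistant HT29. The group was singled out after its values were seen. MCM7 went from 11.51 in parental HT29 to 10.83 in its derivative (-0.68) and was at 11.05 and 10.95 in parental and resistant Colo205 (-0.10). MCM5 read 10.35 and 9.75 in the HT29 pair (-0.60) and 10.31 and 10.47 in the Colo205 pair (0.16). MCM2 read 11.95 and 11.44 (-0.52), and 11.82 and 11.81 in Colo205 (-0.01). Resistant HT29 was thus the lowest of the 4 arrays for each of these 3 genes.

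MCM3 read 11.71 and 11.26 in the HT29 pair (-0.45) and 12.65 and 12.72 in the Colo205 pair (0.07). MCM4 read 11.54 and 11.18 (-0.36), and 11.13 and 11.15 in Colo205 (0.02). MCM6 read 12.21 and 11.98 (-0.23), and 12.14 and 12.37 in Colo205 (0.23). The median of the 6 was -0.48 in HT29 and 0.05 in Colo205. Of the 13 probe sets for these genes past the filter, 12 read lower in resistant HT29, among them both MCM7 probe sets, at -0.68 and -0.65, and a second MCM6 probe set at -1.17; the exception was a MCM4 probe set at 0.16. In Colo205 4 of the 13 read lower.

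**Figure D2:**
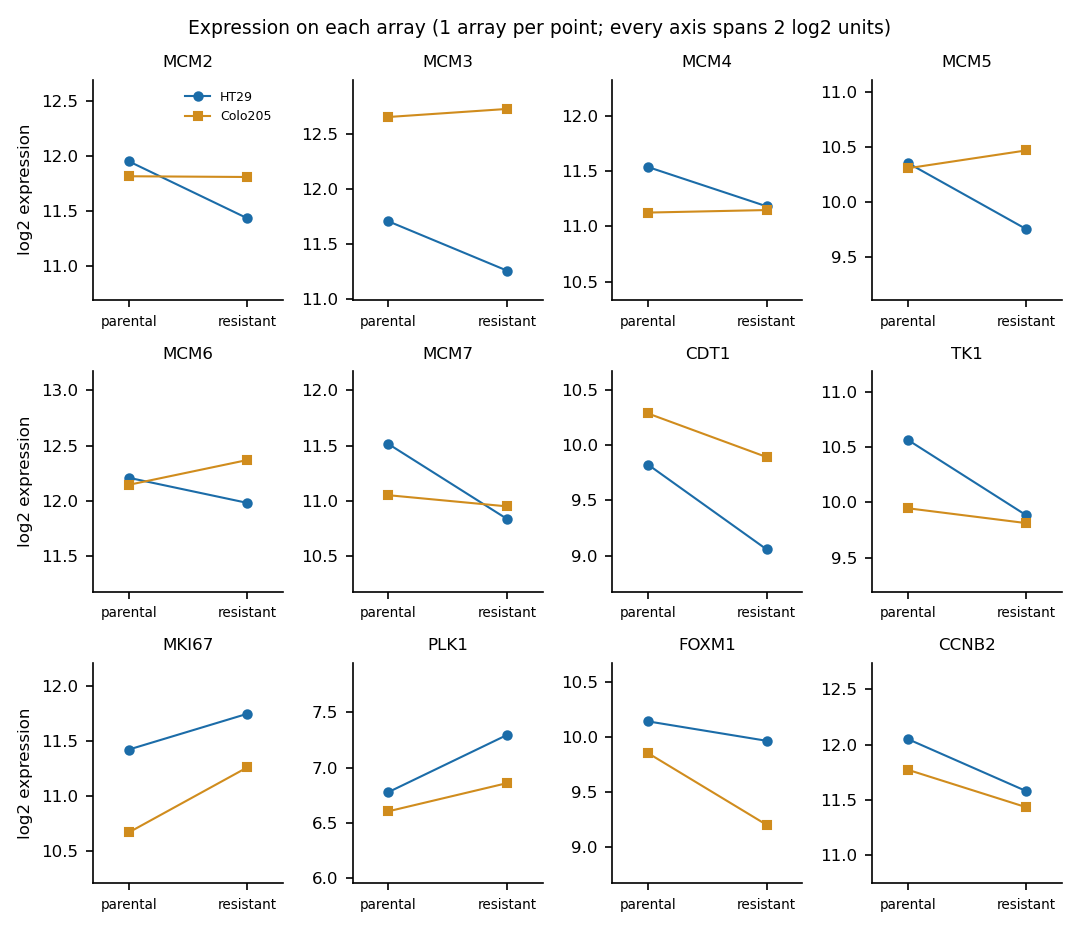
Log2 expression of the 6 helicase genes and of CDT1, TK1, MKI67, PLK1, FOXM1 and CCNB2, 1 point per array, with HT29 as circles and Colo205 as squares; every vertical axis spans 2 log2 units. The 6 helicase genes slope down in HT29, with differences from -0.23 for MCM6 to -0.68 for MCM7, and their Colo205 differences lie between -0.10 and 0.23.

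Licensing factors load this helicase onto origins before S phase. CDT1, which does so together with CDC6 and is destroyed once S phase starts, went from 9.82 to 9.06 in the HT29 cells (-0.77) and from 10.29 to 9.89 in the Colo205 cells (-0.40). The mean of these differences was the lowest of the 40 members, and the second CDT1 probe set was at -0.66 and -0.68. CDC6 read 10.29 and 10.31 in HT29 and 10.22 and 9.98 in Colo205 (0.02 and -0.24). Of these licensing genes only CDT1 was beyond the scatter of 0.30 in HT29.

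GINS1 and GINS2 belong to the complex that activates the helicase at origins, and PCNA is the ring that holds DNA polymerase on its template. GINS1 read 11.40 and 11.76 in HT29 and 12.10 and 12.28 in Colo205, higher in both derivatives by 0.36 and 0.18. GINS2 read 10.87 and 10.52 in HT29 and 11.11 and 11.41 in Colo205 (-0.35 and 0.31). PCNA read 13.49 and 13.17 in HT29 and 13.58 and 13.61 in Colo205 (-0.32 and 0.03). The lines thus differed in sign for GINS2 and shared it for GINS1, while PCNA in Colo205 was within the scatter and changed sign with the scaling, at -0.02 after quantile normalization.

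Enzymes of nucleotide supply were mixed. Thymidine kinase, TK1, which salvages thymidine, went from 10.57 to 9.88 in the HT29 cells (-0.69, with a second probe set at -0.63) and 9.95 and 9.81 in Colo205 (-0.14). Thymidylate synthase, TYMS, which makes thymidylate from scratch, read 13.08 and 12.68 in HT29 (-0.40) and 11.75 and 12.12 in Colo205 (0.37). The subunits of ribonucleotide reductase, which makes deoxynucleotides, read close to their parents in HT29, at 0.00 for RRM1 (12.92 on both arrays) and 0.19 for RRM2. In Colo205 RRM1 read 13.20 and 12.77 (-0.42, with a second probe set at -0.68) and RRM2 was at 0.14.

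Regulators of S phase entry did not share the lower readings of the helicase in HT29. CCNE1, the cyclin that activates CDK2 in late G1, went from 9.14 to 9.90 in the HT29 cells, by 0.76, the largest difference upward among the members in that line, and was at 7.83 and 8.02 in the Colo205 cells (0.19). Its relative CCNE2 read 10.17 and 10.12 in HT29 (-0.05) and 10.04 and 10.44 in Colo205 (0.40). E2F1, the activator of the S phase genes, read 8.62 on both HT29 arrays and 8.22 and 8.45 in Colo205 (0.23). CDC25A, the phosphatase that activates CDK2, was at 0.11 and -0.03, but its other probe sets read -0.58 and -0.37 in HT29, so that its direction there is not settled.

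By their median, mitotic genes were close to their parents in both lines (0.09 in each), while MKI67 and FOXM1 were past 1.5-fold in Colo205. MKI67, the proliferation marker Ki-67 that coats mitotic chromosomes, read 11.42 and 11.75 in the HT29 pair and 10.67 and 11.26 in the Colo205 pair, higher by 0.33 and 0.59. All 4 of its probe sets read higher in both derivatives, from 0.21 to 0.89 in Colo205. PLK1, a kinase that drives mitotic entry and centrosome maturation, read 6.78 and 7.30 in HT29 and 6.60 and 6.86 in Colo205 (0.52 and 0.26). These genes, with CCNE1, had the highest means over both lines.

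Cyclin B and its kinase did not move as a unit. CCNB2 read 12.05 and 11.58 in HT29 and 11.77 and 11.43 in Colo205, lower in both derivatives (-0.47 and -0.34), while a much dimmer second probe set was at 0.29 and -0.04. CCNB1 read 12.21 and 12.15 in HT29 and 12.42 and 12.67 in Colo205 (-0.06 and 0.25), while its other probe set read -0.50 and -0.29. CDK1 read 12.19 and 12.46 in HT29 and 12.30 and 12.06 in Colo205 (0.27 and -0.24), with its other probe sets from 0.62 to 0.73 in HT29. CDC20, the activator of the anaphase-promoting complex, was at 0.07 and 0.14.

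Of the checkpoint and Aurora kinases, BUB1 in Colo205 alone lay beyond the scatter of 0.30. BUB1, a checkpoint kinase at the kinetochore, read 9.92 and 10.10 in HT29 and 9.86 and 10.28 in Colo205 (0.18 and 0.41). Its dimmer second probe set past the filter was at 0.21 and 0.04. AURKA, which builds the spindle poles, was at 0.23 and 0.10, AURKB, which corrects chromosome attachment, at 0.24 and -0.23, BUB1B at 0.17 and -0.23 and TTK at -0.05 and 0.00. The dimmer AURKB probe set had the opposite signs, at -0.15 and 0.12, and the dimmest AURKA probe set read -0.002 in HT29. By the probe sets chosen, 5 of the 6 mitotic kinases with PLK1 read higher in resistant HT29. In resistant Colo205 4 did, TTK by only 0.0001. Among all kept genes 48.5% and 47.5% read higher.

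Chromosome and spindle proteins shared no direction. CENPA, the histone of the centromere, read 8.09 and 8.45 in HT29 and 8.67 and 8.88 in Colo205 (0.36 and 0.21). TOP2A, which untangles sister chromosomes, read 12.52 and 12.63 in HT29 and 13.04 and 12.98 in Colo205 (0.11 and -0.06). CENPF was at 0.02 and 0.36, the spindle motor genes KIF11 at 0.05 and 0.08 and KIF20A at -0.26 and 0.13, and BIRC5, a subunit of the Aurora B complex, at -0.31 and -0.08. The dimmer CENPF probe set was at -0.17 and -0.01. CCNA2, the cyclin of S phase and G2, was at -0.23 and -0.10, and its other probe set at -0.11 and 0.14.

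FOXM1, the transcription factor of the late mitotic wave, gave the largest Colo205 difference. It went from 9.85 to 9.20 in the Colo205 cells (-0.65) and 10.14 and 9.96 in the HT29 pair (-0.18). MYBL2, its partner on mitotic promoters, was at -0.13 in HT29 and 0.07 in Colo205. FOXM1 lies on chromosome 12, where the 20 kept genes on either side had a median difference of -0.39 in Colo205 and of 0.02 in HT29. CDK2, the kinase partner of cyclin E, lies on the same chromosome, where its neighbours had a median of -0.43 in Colo205. It read 9.91 and 9.46 in Colo205 (-0.46) and 10.16 and 10.24 in HT29 (0.08).

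Relative to their neighbours, CDK2 was thus at -0.03 and FOXM1 at -0.26 in Colo205. RRM1, on chromosome 11, had neighbours at -0.20, and BUB1B and CCNB2, on chromosome 15, at -0.23 and -0.16. The neighbours of MCM7, on chromosome 7, had a median of -0.18 in HT29. Those of the other helicase genes lay between -0.12 and 0.06 in that line, and the median of the 6 genes relative to neighbours was -0.46. DNA copy number was not measured, and its part in these values was not tested.

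**Figure D3:**
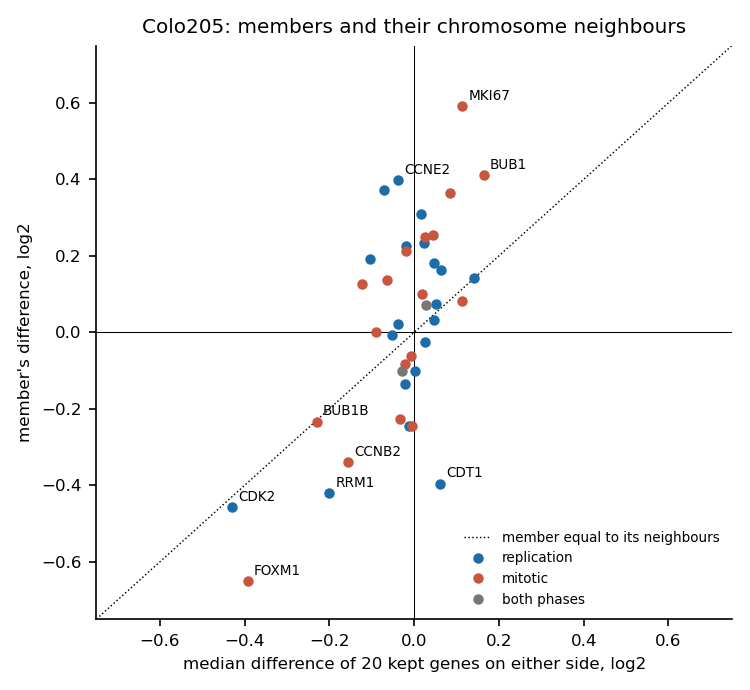
Resistant minus parental log2 difference of each member in Colo205 (vertical) against the median difference of the 20 kept genes on either side of it on its chromosome (horizontal), coloured by class; on the dotted line a member equals its neighbours. FOXM1 and CDK2 lie farthest left, with neighbours at -0.39 and -0.43, and MKI67 lies highest, at 0.59 with neighbours at 0.11.

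By size, 5 of the 40 members were 1.5-fold or more apart in HT29, namely CCNE1 (higher) and MCM5, MCM7, TK1 and CDT1 (lower). All 5 are replication genes. Of all kept genes 15.0% passed that fold in this line, 8.10% higher and 6.89% lower. In Colo205 the members past it were MKI67 (higher) and FOXM1 (lower), 2 of 40, against 10.8% of all kept genes, 2.99% higher and 7.78% lower. None of the 40 was 2-fold or more apart in either line, against 5.14% and 3.42% of all kept genes. Probe sets named _s_at match several transcripts, often of the same gene, and those named _x_at may cross-react. Without both kinds, 31 members remained, of which 2 were past 1.5-fold in HT29 and 0 in Colo205.

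The median of the replication genes minus that of the mitotic genes was -0.36 in HT29 and -0.04 in Colo205. By medians most of the HT29 value rested on the helicase genes, since without MCM2 to MCM7, a choice made after seeing the data, it was -0.09 by medians and -0.14 by means (-0.26 by means with them). Without _s_at and _x_at probe sets, which left 16 replication and 13 mitotic genes and 4 of the 6 helicase genes (median -0.25 in HT29), it was -0.09 in HT29 and 0.28 in Colo205. Minus the chromosome neighbours it was -0.29 in HT29.

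Wider lists, which hold none of the members, were lower in resistant HT29 in the same class. They were read from the same arrays and chosen with earlier results of these data known, so that they are no independent check. Of 43 measured further replication genes, such as origin recognition, polymerase and clamp loader genes, 36 read lower in HT29 and 18 in Colo205 (medians -0.29 and 0.04). Without _s_at and _x_at probe sets this list was at -0.32 in HT29, with 27 of 32 genes lower. Of 45 further mitotic genes, 21 read lower in HT29 and 22 in Colo205, with medians of 0.02 and 0.03. The replication list minus the mitotic list was -0.32 in HT29 and 0.01 in Colo205.

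By the mean over both lines the lowest further replication genes were PRIM1, the primase (-0.27 in HT29 and -0.80 in Colo205), and ORC1 of the origin recognition complex (-0.40 and -0.31). The highest were the clamp loader gene RFC5 (0.48 and 0.36) and the polymerase subunit gene POLD2 (0.56 and -0.06). GMNN, the inhibitor of CDT1, went from 12.20 to 11.41 in the HT29 cells (-0.78) and was at 0.10 in Colo205; it was chosen after its value was seen. Of the further mitotic genes the lowest were the kinetochore genes CENPM (-1.03 and -0.02) and SPC24 (-0.44 and -0.31), and the highest were ANLN, an actin-binding protein of the cleavage furrow (1.05 and 0.06), and SPC25 (0.10 and 0.88).

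Checkpoint and repair genes were lower in HT29 as well. All 12 measured genes of that list read lower in resistant HT29 and 6 in resistant Colo205, with medians of -0.37 and 0.00. CHEK2, a kinase that halts the cycle after DNA breaks, read 9.37 and 8.41 in HT29 and 8.80 and 8.14 in Colo205, and ATM, which activates it, was at -0.54 and -0.48. The highest were CHEK1 (-0.21 and 0.30) and BARD1 (-0.13 and 0.16).

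Of 28 genes of the restriction point and its inhibitors, which decide entry into the cycle, 16 read lower in HT29 and 9 in Colo205, with medians of -0.10 and 0.07. This list spread more widely than the members, with an SD of 0.63 in HT29 against 0.35 for the 40 members and 0.52 for all kept genes. The inhibitor gene CDKN1B was lowest (-1.28 and -1.47), followed by CDK4 (-0.21 and -0.96), and the inhibitor genes CDKN1A (1.74 and 0.11) and CDKN1C (0.13 and 1.39) were highest.

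**Figure D4:**
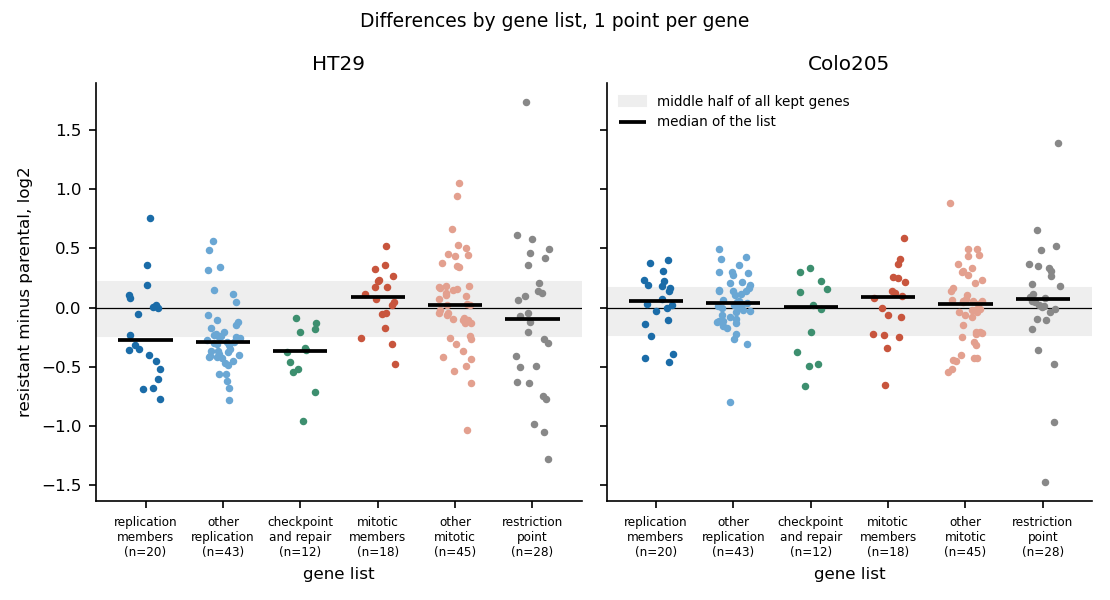
Resistant minus parental log2 difference of each gene in HT29 (left) and Colo205 (right) for the members and the wider lists, 1 point per gene with horizontal jitter; bars are list medians and the grey band lies between the quartiles of all kept genes. In HT29 the replication members, the further replication genes and the checkpoint and repair genes have medians of -0.27, -0.29 and -0.37, and the mitotic lists 0.09 and 0.02.

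Some technical readings moved between the same arrays. All 24 poly-A spike probe sets, RNA added before labelling, read lower in both derivatives (median -0.43 for HT29 and -0.72 for Colo205). The 3' minus 5' reading of ACTB, a sign of RNA integrity, was 2.77 and 2.40 in parental and resistant HT29 and 2.88 and 3.13 in the Colo205 cells. That of GAPDH was smaller, at 0.53 and 0.44 in HT29 and 0.52 and 0.66 in Colo205. Of 8 measured epithelial markers 6 read above 10 on every array, with a median over the 8 of 12.71 in parental and 13.80 in resistant HT29 and of 12.77 and 12.95 in the Colo205 cells. KRT20 was at 12.69 and 14.28 in HT29 and at 4.79 and 3.95 in Colo205, and KRT19 at 12.73 and 13.84 and CDX2 at 5.17 and 6.52 in HT29. None of 13 markers of leukocytes, fibroblasts and endothelium read above 8 on any array. LUM and PECAM1, among the latter, read 5.14 and 6.29 in parental and 6.80 and 7.18 in resistant HT29. The part of these readings in the lower replication genes was not tested.

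Across both lines together no member was called as different between derivative and parent. In limma, with the cell line as a block, 0 of 40 members and 0 of 13651 genes passed an adjusted p of 0.05 by the Benjamini-Hochberg method, a background of 0%. At an unadjusted p under 0.05 there were 928 genes, or 6.80%, and 1 member, CDT1. Its mean difference was -0.58 with a standard error of 0.18, a limma 95% interval from -1.10 to -0.06, an adjusted p of 0.706 and lower readings in 2 of 2 lines. The intervals of the other named members held 0: MKI67 had a mean of 0.46 (-0.02 to 0.94), CCNB2 of -0.41 (-0.85 to 0.04), PLK1 of 0.39 (-0.09 to 0.87) and MCM7 of -0.39 (-1.02 to 0.23).

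Of the 40 members, 11 read higher and 8 lower in both derivatives, 13 were lower only in the HT29 derivative and 8 only in the Colo205 derivative. Among all kept genes, in this order, the shares were 26.3%, 30.1%, 21.2% and 22.2%. Of the 13 with lower HT29 and higher Colo205 readings, 9 were replication genes, MCM3, MCM4, MCM5 and MCM6 among them. Of the 11 higher in both, 8 were mitotic genes. Across the 40 members, which share their arrays, the HT29 and Colo205 differences correlated at 0.25 (Pearson) and 0.23 (Spearman), against 0.175 and 0.178 across all kept genes.

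The lines themselves differed more for these genes than derivative and parent did. With the state as a term in the same limma fit, 3 of 40 members passed an adjusted p of 0.05 between HT29 and Colo205, against 15.2% of all genes tested. CCNE1 was higher in HT29, by 1.31 between the parents and 1.88 between the derivatives, with a mean of 1.59 (95% interval 0.98 to 2.21, limma adjusted p = 0.0304). MYBL2 was higher in HT29, by 1.15 and 0.94, with a mean of 1.05 (0.58 to 1.51, limma adjusted p = 0.0371). MCM3 was lower in HT29, at -0.95 and -1.47 (mean -1.21, interval -1.80 to -0.61, limma adjusted p = 0.0441). Each line's 2 arrays are a parent and its derivative, 2 related cultures and not replicates. These p-values rest on how far the resistant minus parental differences of the 2 lines disagree, with 1 residual degree of freedom.

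TYMS was higher in parental HT29 than in parental Colo205 by 1.34, and by 0.56 between the derivatives (limma adjusted p = 0.0939). CDC25A was higher in HT29 by 0.68 and 0.82 (limma adjusted p = 0.0595). Between the parents CCNE1, TYMS and MYBL2 were 2-fold or more apart, 3 of 40 members against 18.7% of all kept genes. The members' differences between the parents had an SD of 0.52, against 1.09 for all kept genes. The helicase genes other than MCM3 lay between 0.05 and 0.46 between the parents and between -0.71 and 0.03 between the derivatives.

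**Figure D5:**
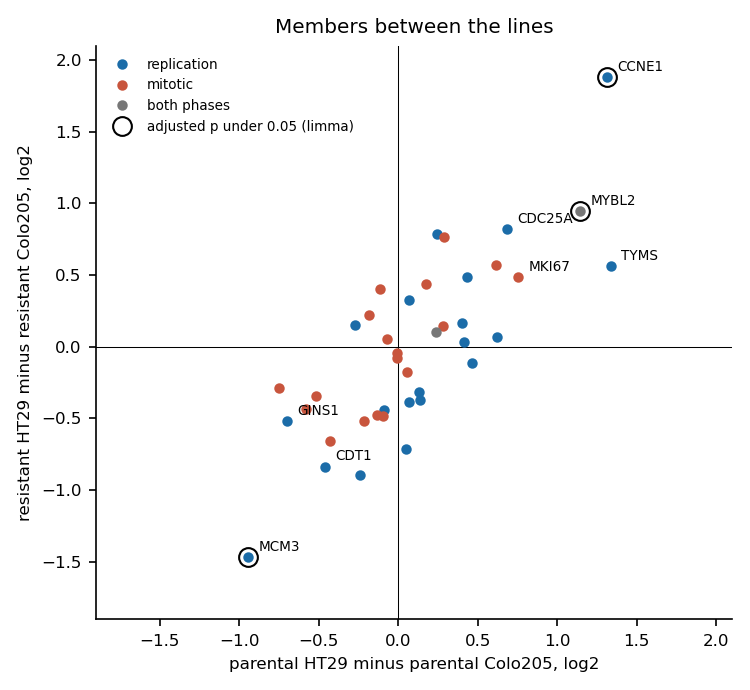
Log2 difference of each member between HT29 and Colo205, for the parents (horizontal) and the derivatives (vertical), coloured by class; circled genes passed an adjusted p of 0.05 in limma. CCNE1 and MYBL2 lie at the upper right, at 1.31 and 1.88 and at 1.15 and 0.94, and MCM3 at the lower left, at -0.95 and -1.47.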

How the data were processed

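Total RNA was measured on 4 Affymetrix arrays, 1 for each line (HT29, Colo205) and state (parental, resistant). The authors deposited a table of log2 values for 54675 probe sets; that they are log2 values follows from their range, 2.51 to 14.88. Per the submitters' processing notes MAS5 and RMA were used, with no role stated, and the method of background correction is not stated there. Precision is limited by the number of arrays.

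GEO's platform annotation gave 1 gene for 41091 probe sets, of which 41037 had a gene identifier in RefSeq (GRCh38.p14). A gene was read through the probe set of highest mean, and genes below 5.73, the median of the table, on all arrays were left out. Differences are resistant minus parental log2 values. The states were compared by limma (version 3.58.1, R version 4.3.3), the line being a block (1 residual and 2.54 prior degrees of freedom), with Benjamini-Hochberg adjustment over 13651 genes. The fit was also run on simulated data. The changes planted there were larger than any resistant minus parental difference of a member, so that run does not bear on changes of the members' size. The labels pair a derivative with its parent, and deviations of same-line arrays from their group means correlated at 0.837 across genes. Whether cultures were independent is not in the labels. The p-values rest on how far the resistant minus parental differences of HT29 and Colo205 disagree. No repeat culture or repeat array gives the spread within a line.

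The members, classes and lists were chosen with earlier results of these data known, and the role groups within a class after the values were seen. All 40 members could be named; values on every array are given for those with the largest differences and for 8 genes fixed by name, and of each wider list the 2 highest and 2 lowest by the mean over both lines. Alternatives were no filter, the mean of all probe sets, no _s_at or _x_at probe sets, centring, quantile normalization, chromosome neighbours (gene order from RefSeq), a mean-variance trend, no block, and 1 line left out.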

Additional observations from a re-analysis of the deposited data

Results flagged for a closer look

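TYMS and GINS2 read in opposite directions in the 2 lines, each by at least 1 SD between probe sets of the same gene. For TYMS the HT29 value was -0.40 and the Colo205 value 0.37, and for GINS2 they were -0.35 and 0.31. With 1 array for each line and state, this contrast of the lines was not tested. The other TYMS probe set past the filter shared these directions, at -0.54 and 0.35. The other GINS2 probe sets were at -0.52 and -0.03 in HT29 and at 0.03 and 0.09 in Colo205.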

How the results depend on the processing

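Of 72 recomputed summary values, 56 stayed within a tolerance. For counts this was 1.5 times the reported count, and for medians and class differences the probe-set scatter divided down for the number of members, about 0.0476 for the median of the members and 0.0978 for replication minus mitotic in HT29. Some of the 72 values could not move. All 40 members passed the filter, so leaving it out changed no member, and centring shifts both classes alike. The number of members 1.5-fold or more apart in HT29 went from 5 to 2 without _s_at and _x_at probe sets. In Colo205 it went from 2 to 1 with the mean of all probe sets or with centred arrays, and to 0 without _s_at and _x_at probe sets or relative to chromosome neighbours. The median of the 40 members in HT29 went from -0.02 to -0.0754 with the mean of all probe sets; in Colo205 it went from 0.07 to 0.19 with centred arrays; between the parents it went from 0.06 to 0.20 with centred arrays and to 0.15 relative to neighbours. The replication minus mitotic value in HT29 went from -0.36 to -0.0889 without _s_at and _x_at probe sets, to -0.26 with means and to -0.0909 without the helicase genes; in Colo205 it went from -0.04 to 0.28 without _s_at and _x_at probe sets. Leaving out 1 line, the mean over both lines of the members' median (-0.02) ranged from -0.0234 to 0.0723 and that of the replication minus mitotic value (-0.17) from -0.365 to -0.0391, each without a test. Fewer members measured is part of the setting without _s_at and _x_at probe sets, and otherwise the cause was not tested. With no replicate block limma called 0 genes between derivative and parent, as in every other alternative, with 131 at an unadjusted p under 0.05, and 2247 between the lines, where the blocked fit called 2070 and the others from 1393 to 2828. Of 462 recomputed values of single members in a line, 11 moved by more than the scatter of 0.30. Those without the filter could not move, and centring shifted all members of a line by the same amount, below that scatter.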

Other observations

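The letters of the E2F words were also set against the differences of genes outside the 40 members. Of 541 kept genes with an E2F word in their promoter window, 60.1% read lower in resistant HT29, with a median of -0.07, against 51.7% and -0.01 of 10380 kept genes without one. In Colo205 the shares were 56.2% and 52.8%, with medians of -0.04 and -0.02. Genes of the wider replication list were not taken out of these sets. Among the members, the 14 with an E2F word had a median of -0.27 in HT29 and the 18 without one a median of 0.06, and in Colo205 0.05 and 0.10. Of those 14 members 12 are replication genes, so that this split largely repeats the split by class and is no separate evidence on promoters. The 12 members with both a CHR word and a CCAAT box had medians of 0.09 in HT29 and 0.17 in Colo205, whereas 522 kept genes outside the members with both had medians of -0.03 and 0.00, with 54.2% lower in HT29 and 49.4% in Colo205. Genes of 1 array pair are not replicates, and these values carry no test.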
